A study of Mus musculus with 2 samples.

Results

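Ebf1, Ebf2, Ebf3 and Ebf4 are the 4 mouse genes of the early B cell factor family, and their open chromatin was described here in newborn hindbrain. They were taken by name from an annotation of the mouse genome build mm10, as 4 of 21938 protein-coding genes. The tissue was hindbrain of B6NCrl mice at postnatal day 0, with male and female tissue combined, profiled by DNase-seq, in which the enzyme DNase I cuts accessible DNA and the cut sites are sequenced. There was 1 group of 2 biological replicates, which the labels record as separate tissue samples under a single donor entry. The sources used here do not give the number of animals per sample, and no treatment, transgene or second condition was part of the design. Each replicate had a list of peaks, narrow sites of 150 bp with a score of 1 to 150, and a list of hotspots, the wider stretches enriched for cuts. The sequencing depth behind these lists is unknown.

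Early B cell factors bind DNA as dimers through a zinc-coordinating domain and recognise a palindrome, TCCC and GGGA with 2 bases between them. Ebf1 is required for commitment to the B lymphocyte lineage, Ebf2 is a determinant of brown fat cell identity, and several family members act in differentiating neurons, among them olfactory sensory neurons. In the hindbrain, Ebf2 is known for its part in the development of Purkinje cells, the large neurons through which the cerebellar cortex sends its output. Ebf4 is the least studied member.

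A region counted here as open when the peaks of both replicates overlapped by at least 1 bp, which gave 136714 regions over the genome. The 4 genes held 104 of them, 42 at Ebf1, 26 at Ebf2, 29 at Ebf3 and 7 at Ebf4. Of these, 10 lay within 500 bp of a transcription start site of the gene and were called promoter regions, and 65 lay between the annotated start and end of the gene. Distal regions, over 500 bp from the start site of any gene and with one of the 4 genes as the nearest protein-coding start site, numbered 92, of which 54 lay inside the gene bodies and 38 outside. These classes overlap, since a distal region can lie in a gene body. Replicate 1 had the higher score in 102 of the 104 regions, against 96.2% of all shared regions, so scores are compared below only within a replicate. In a whole tissue, a low score from few open cells and one from weak opening in many cells cannot be told apart.

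**Figure D1:**
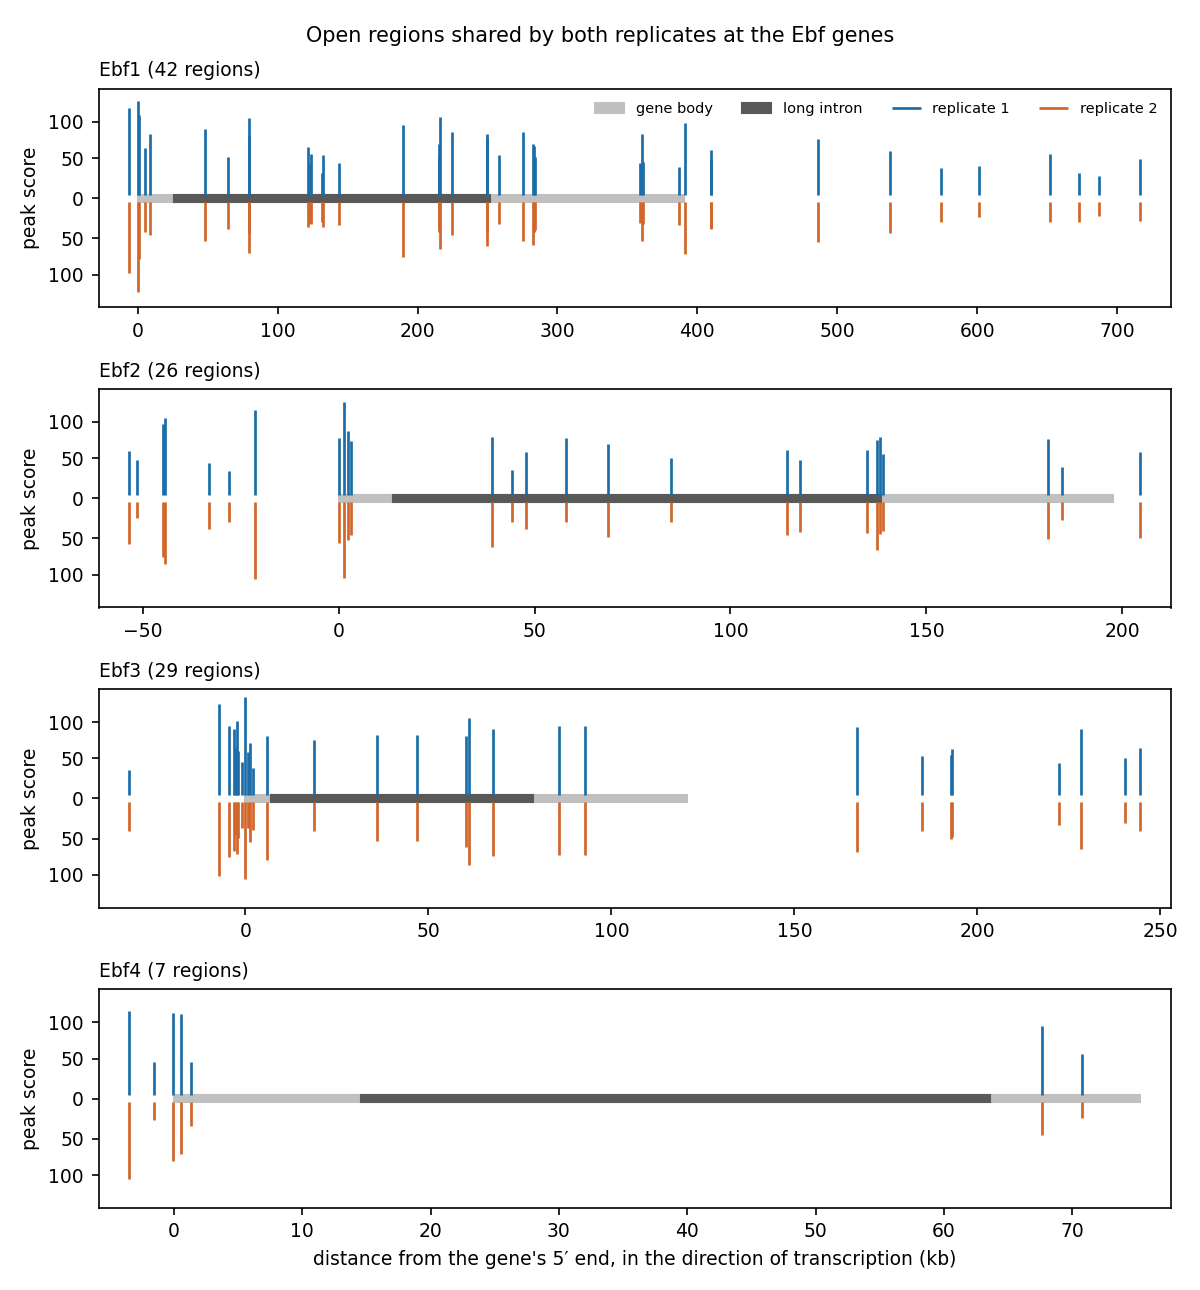
The 104 shared regions along the 4 genes, with the distance from the gene's 5′ end in kb on the x axis (negative values are upstream) and the best peak score of replicate 1 (upward) and replicate 2 (downward) on the y axis. Light grey bars mark the gene bodies and dark grey bars the long intron, which held 17, 11 and 6 regions in Ebf1, Ebf2 and Ebf3 and 0 in Ebf4.

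Each of the 4 genes had promoter peaks of both replicates, as did 66.3% of all protein-coding genes, 14541 in number. The best promoter peak of Ebf1 scored 129 in replicate 1 and 124 in replicate 2, that of Ebf2 127 and 104, that of Ebf3 134 and 105, and that of Ebf4 113 and 81. Ebf4 was the lowest of the 4 in both replicates, while Ebf3 led in replicate 1 and Ebf1 in replicate 2. The medians over the 14541 genes were 129 and 109, and only Ebf3 in replicate 1 and Ebf1 in replicate 2 were above them. The share of those genes with a lower best score was 48.1% and 73.0% for Ebf1, 44.6% and 43.0% for Ebf2, 59.5% and 44.2% for Ebf3, and 28.5% and 26.2% for Ebf4, in replicates 1 and 2. Ebf1 and Ebf3 exchanged places between the replicates, and Ebf2 was below both in each.

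The strongest promoter regions of Ebf1, Ebf3 and Ebf4 are printed below because they differ in base composition, with every CpG in capitals. Letters are from the mm10 reference assembly, read 5′ to 3′ on the strand of the gene, and for Ebf3 and Ebf4 the bases that lie in exons are left off.
Ebf1 promoter region (chr11:44617156-44617305, plus strand): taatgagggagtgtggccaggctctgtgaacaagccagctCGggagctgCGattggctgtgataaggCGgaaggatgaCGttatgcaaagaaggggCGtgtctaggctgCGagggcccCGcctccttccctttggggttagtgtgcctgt
Ebf3 promoter region (chr7:137314446-137314565, minus strand): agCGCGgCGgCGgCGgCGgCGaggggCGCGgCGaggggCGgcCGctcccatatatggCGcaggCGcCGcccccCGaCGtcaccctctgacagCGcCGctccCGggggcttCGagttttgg
Ebf4 promoter region (chr2:130295036-130295168, plus strand): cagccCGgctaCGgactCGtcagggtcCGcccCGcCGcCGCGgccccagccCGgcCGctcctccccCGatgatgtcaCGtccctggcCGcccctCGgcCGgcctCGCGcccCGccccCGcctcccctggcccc
The Ebf1 region has few CpGs, 8 in a window of 200 bp around its centre, whereas the corresponding windows held 29 in Ebf3 and 25 in Ebf4. Over the 500 bp on each side of the gene's 5′ end, the ratio of observed to expected CpG was 0.492 for Ebf1, 0.711 for Ebf2, 1.045 for Ebf3 and 0.802 for Ebf4, against a median of 0.552 over all protein-coding genes. Ebf3 stood near the top of the genome on this measure, with 99.3% of genes lower, and Ebf1 in the middle, with 46.0% lower. Promoter scores of 129 and 134 in replicate 1 thus went with very different CpG content. This holds for the strongest promoter region of Ebf1 and not for the whole promoter. The other promoter region of Ebf1, 1.09 kb from the 5′ end with scores of 109 and 79, held 27 CpGs in its window. Its ratio of observed to expected CpG was 0.945.

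Within Ebf1, Ebf2 and Ebf3 the annotated start sites were not equally open. Ebf1 spans 391 kb at chr11:44617317-45008091 and has 5 start sites, of which 3 had peaks in both replicates. The start at its 5′ end had best scores of 129 and 124, the 2 starts 0.799 and 0.862 kb further in shared a peak of 109 and 79, and the 2 noncoding transcripts that start 4.44 and 295 kb in had no peak in either replicate. Ebf2 spans 198 kb at chr14:67233292-67430918, and all 4 of its start sites had peaks in both replicates. Here the 5′ end was the weaker place, with 78 and 57, and the start of a coding transcript 1.35 kb downstream had the gene's best peak, with 127 and 104. Ebf3 spans 121 kb at chr7:137193673-137314445 on the minus strand and had peaks of both replicates at 5 of 6 start sites. The 4 start sites at its 5′ end shared a peak of 134 and 105, and a coding transcript that starts 46.9 kb inside the gene had its own peak of 82 and 54. The start of a noncoding transcript 87.6 kb in had a peak of 60 in replicate 1 alone. Ebf4, the shortest of the 4 with 75.3 kb at chr2:130295169-130370481, has 2 start sites 0.77 kb apart, with 113 and 81 at the 5′ end and 112 and 71 at the other.

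The peaks at the 5′ ends of Ebf1 and Ebf2 were shared with start sites of other annotated genes. A gene of unclear coding status, Gm37695, starts 301 bp from the Ebf1 start on the opposite strand and has the same best peak, 129 and 124. The long noncoding RNA gene Gm20675 starts 163 bp from the 5′ end of Ebf2, again on the opposite strand, and has the 78 and 57 peak of that end. The antisense, microRNA and other noncoding genes that lie inside the bodies of Ebf1, Ebf2 and Ebf3 had no promoter peak of both replicates. Among them were Gm12158, Gm6878, 4930438E09Rik and Gm10578. Gm45278 inside Ebf3 had a peak of 42 in replicate 1 alone. That peak belongs to a block of peaks seen only in replicate 1, described below. The protein-coding neighbours had promoter peaks in both replicates: Rnf145 and Clint1 beside Ebf1, Ppp2r2a and Cdca2 beside Ebf2, Mgmt and 9430038I01Rik beside Ebf3, and Idh3b and Cpxm1 beside Ebf4. Cdca2, a cell division gene, had the best scores of these, 148 and 137, and Cpxm1 the lowest, 61 and 43.

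**Figure D2:**
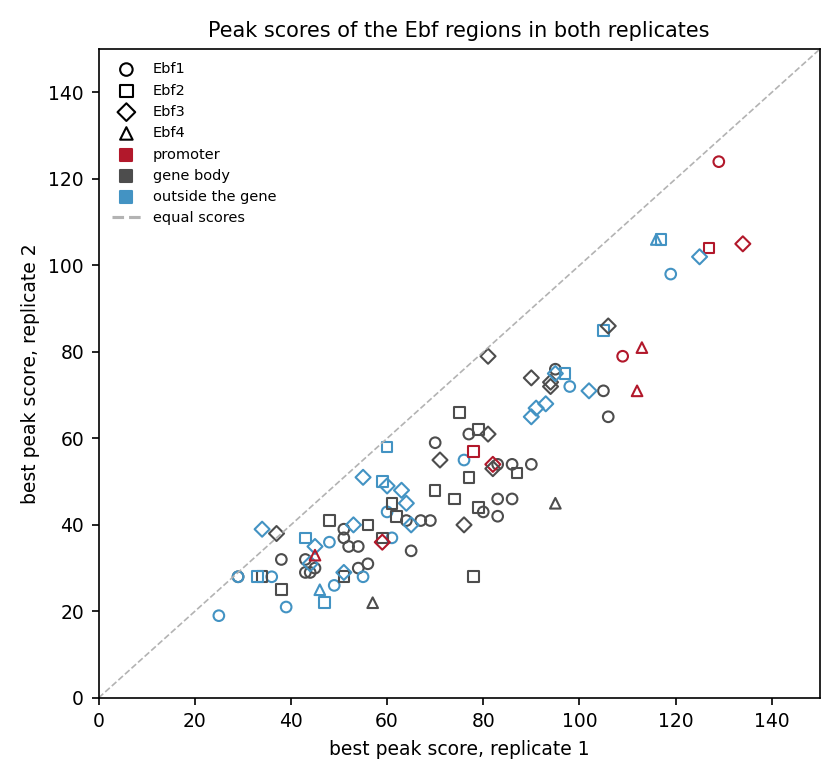
Best peak score of each of the 104 Ebf regions in replicate 1 (x axis) and replicate 2 (y axis), with genes as marker shapes and positions as colours. All but 2 regions, both of Ebf3, lie below the line of equal scores, and the Ebf1 promoter at 129 and 124 is the highest in replicate 2.

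Ebf1, Ebf2 and Ebf3 each had many distal regions and Ebf4 had few. Ebf1 had 40, Ebf2 24, Ebf3 26 and Ebf4 2, against a median of 2 per protein-coding gene, and 68.7% of protein-coding genes had at least 1. The shares of protein-coding genes with fewer distal regions were 98.8%, 95.9%, 96.5% and 47.0% in the same order. The first 3 genes also have long stretches of genome nearest to their start sites, 793, 313 and 302 kb, against 54.7 kb for Ebf4. Per 100 kb of that stretch, Ebf3 had 8.61 regions, Ebf2 7.67, Ebf1 5.04 and Ebf4 3.65, against a median of 3.50 over genes. On this scale the order of the genes changed, and 79.8% of genes were lower than Ebf3, 75.9% lower than Ebf2, 60.9% lower than Ebf1 and 51.1% lower than Ebf4.

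These counts rest on the rule that ties a region to a gene. With genes of every type as candidates for the nearest start, 39 of the 92 regions stayed with the family, 19 at Ebf1, 2 at Ebf2, 16 at Ebf3 and 2 at Ebf4. Noncoding genes start inside or beside Ebf1, Ebf2 and Ebf3. Downstream of Ebf3, the distal regions from 185 to 245 kb from its 5′ end lay inside the body of the protein-coding gene Mgmt. They were counted for Ebf3 because its start was the nearest protein-coding start. Replicate 1 taken alone gave 251 distal regions and replicate 2 alone 123, and with only the peaks at or above the median score of their list there were 58.

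The distal regions as a group were a little higher in score than distal regions genome-wide, at medians of 64.5 for replicate 1 and 43 for replicate 2, where all distal regions had 60 and 40. Ebf3 had medians of 78.5 and 54, Ebf1 60.5 and 38, Ebf2 61.5 and 44.5, and Ebf4, with only 2 regions, 81 and 65.5. Their sequence was richer in CpG, with a median ratio of observed to expected of 0.353 against 0.245, and 17 of the 92 regions reached 0.6, against 8.24% of all distal regions. Ebf3 accounted for 9 of those 17. The 17 included regions only 571 and 851 bp from a start site of Ebf3, and others far from any start of their gene, such as a region of Ebf1 at 43555 bp.

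In every one of the 4 genes the distal region with the highest scores lay upstream of the gene. It was 6.23 kb upstream of Ebf1, with scores of 119 and 98, 21.4 kb upstream of Ebf2, with 117 and 106, 7.23 kb upstream of Ebf3, with 125 and 102, and 3.50 kb upstream of Ebf4, with 116 and 106. In Ebf4 this region scored above the gene's own best promoter peak in both replicates, in Ebf2 in replicate 2, and in Ebf1 and Ebf3 in neither. All 4 lay in hotspots at the highest −log10 q of the deposited tables, 100, in both replicates. The 4 sequences are printed because each holds a form of the same short string, shown in capitals.
Ebf1 upstream region (chr11:44611016-44611165, plus strand): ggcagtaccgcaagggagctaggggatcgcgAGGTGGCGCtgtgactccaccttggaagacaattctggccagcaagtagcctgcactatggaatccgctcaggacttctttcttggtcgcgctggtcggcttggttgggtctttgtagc
Ebf2 upstream region (chr14:67211856-67212025, plus strand): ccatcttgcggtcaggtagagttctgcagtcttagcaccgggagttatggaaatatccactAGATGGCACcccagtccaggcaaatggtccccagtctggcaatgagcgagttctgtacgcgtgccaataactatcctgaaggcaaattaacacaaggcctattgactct
Ebf3 upstream region (chr7:137321596-137321745, minus strand): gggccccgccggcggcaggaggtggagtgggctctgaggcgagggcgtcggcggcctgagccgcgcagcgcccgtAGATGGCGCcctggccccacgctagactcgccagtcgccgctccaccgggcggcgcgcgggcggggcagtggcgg
Ebf4 upstream region (chr2:130291596-130291745, plus strand): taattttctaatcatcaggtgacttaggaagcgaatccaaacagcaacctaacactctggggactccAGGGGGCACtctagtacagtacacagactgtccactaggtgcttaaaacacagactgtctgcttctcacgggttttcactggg
The capitals mark AGGTGGCGC, AGATGGCAC, AGATGGCGC and AGGGGGCAC, which belong to the core of the sequence bound by CTCF, a zinc finger protein known for its part in chromatin loops and boundaries. Searched on both strands in windows of 200 bp around the region centres, the 8 words of this core (AGAGGGCAC, AGAGGGCGC, AGATGGCAC, AGATGGCGC, AGGGGGCAC, AGGGGGCGC, AGGTGGCAC and AGGTGGCGC) were found in 6 of the 92 Ebf distal regions, or 6.52%, against 7.14% of all distal regions. Among the 1494 distal regions of the genome that scored at least 116 in replicate 1 and 98 in replicate 2, the lowest values of the 4, the share was 12.0%. The other 2 Ebf regions with such a word were intronic in Ebf2, with scores of 62 and 42, and downstream of Ebf3, with 53 and 40. The latter lay inside the body of Mgmt. This search was added after the 4 sequences had been read, so the count of 4 of 4 is a description of these letters, and binding was not measured. A stricter form, CCA and AGGGGGC with 2 bases between them, which was on the list of motifs searched throughout, was in 0 of the 92 regions and in 1.84% of all distal regions.

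Upstream of the genes the arrangement differed. Ebf3 had 7 regions within 10 kb upstream of its 5′ end, from 1.03 to 7.23 kb, with scores of 45 to 125 in replicate 1 and 35 to 102 in replicate 2. Of these, 4 lay in succession from 1.94 to 3.09 kb, spaced 340 to 410 bp apart, and fell in a single hotspot of 1901 bp in replicate 2. In replicate 1 the promoter peak lay in a hotspot of 4255 bp, the widest at any of the 4 genes, which reached into this upstream group. Ebf2 had no region within 10 kb upstream but 7 between 21.4 and 53.5 kb, among them a pair 360 bp apart with scores of 97 and 75 and of 105 and 85. Ebf1 had 1 upstream region and 11 downstream, of which the farthest was 717 kb from the 5′ end and scored 49 and 26. The strongest of the 11, with 98 and 72, lay just past the gene's 3′ end.

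Gene body regions numbered 29 in Ebf1, 18 in Ebf2, 13 in Ebf3 and 5 in Ebf4, against a median of 2 per protein-coding gene, and 72.2% of genes had at least 1. Per 100 kb of gene the values were 7.42, 9.11, 10.8 and 6.64, against a median of 7.26, with 50.8%, 57.5%, 63.1% and 47.3% of genes lower. The body counts therefore stood out in number but not in density. With replicate 1 alone the 4 genes had 178 body regions, and with replicate 2 alone 87.

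Many of the gene body regions of Ebf1, Ebf2 and Ebf3 lay in 1 intron that the 4 genes have in common. In each of them a run of exons of 157, 64, 56, 74 and 69 bp is followed by the gene's longest intron and then by an exon of 82 bp. This intron was 226 kb long in Ebf1, 125 kb in Ebf2, 71.5 kb in Ebf3 and 49.0 kb in Ebf4, or 57.7%, 63.1%, 59.2% and 65.1% of the gene. It held 17 regions in Ebf1, 11 in Ebf2 and 6 in Ebf3, and none in Ebf4. In the first 3 genes these were 58.6%, 61.1% and 46.2% of the body regions. The share of regions was thus near the intron's share of the gene in Ebf1 and Ebf2, and below it in Ebf3 and Ebf4. Per 100 kb of intron there were 7.53, 8.83 and 8.39 regions in the first 3 genes, values near each other. The whole-gene densities were close in Ebf1 and Ebf2, 7.42 and 9.11, and higher in Ebf3, 10.8. Ebf4 had a single peak of replicate 1 in the intron and no peak of replicate 2. Comparing this intron between the genes was an idea taken from the data. The highest region in it by mean percentile scored 105 and 71 in Ebf1, 79.7 kb from the 5′ end, 75 and 66 in Ebf2, 137 kb in, and 106 and 86 in Ebf3, 61.0 kb in. Next came a region of 95 and 76 in Ebf1, 189 kb in, and a region of 79 and 62 in Ebf2, 39.1 kb in. In Ebf3 the intron also holds the internal start site with its peak of 82 and 54, and the next highest body region, with 94 and 73, lay beyond it in intron 8.

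Stretches without any shared region were long in all 4 genes. The longest in Ebf1 ran for 75.0 kb, in Ebf2 for 42.0 kb, in Ebf3 for 28.0 kb at the 3′ end, and in Ebf4 for 66.1 kb, which is 87.8% of that gene. The 2 regions beyond this gap in Ebf4 scored 95 and 45 and 57 and 22. Their nearest protein-coding start was that of Cpxm1, a carboxypeptidase-like gene, and not that of Ebf4. The stretch in Ebf3 was not empty in replicate 1, which had a block of 33 peaks there, described below.

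Regions that hold the family's own recognition palindrome were few. The EBF palindrome, searched in 200 bp windows, was in 1 of the 92 distal regions, or 1.09%, against 0.975% of all distal regions. Over all 104 regions it was found in 2, both inside genes, and they are printed with the palindrome in capitals.
Ebf1 long intron region (chr11:44832316-44832485, plus strand): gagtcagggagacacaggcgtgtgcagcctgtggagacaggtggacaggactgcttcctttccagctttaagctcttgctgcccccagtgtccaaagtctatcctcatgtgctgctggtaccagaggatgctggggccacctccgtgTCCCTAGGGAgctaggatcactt
Ebf4 intron 15 region (chr2:130362736-130362905, plus strand): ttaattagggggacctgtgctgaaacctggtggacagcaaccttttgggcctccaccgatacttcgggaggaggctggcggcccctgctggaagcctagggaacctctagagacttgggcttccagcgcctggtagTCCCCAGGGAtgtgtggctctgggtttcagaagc
The Ebf1 region lies 215 kb from the 5′ end with scores of 69 and 41, and the Ebf4 region is the one of 95 and 45 named above. In windows of 100 bp neither match was inside, and 300 bp windows raised the count to 3, so the count is set by the window.

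Of the other motifs searched, most were in about the same share of the Ebf distal regions as of all distal regions. The E-boxes CAGCTG and CAGATG, bound by basic helix-loop-helix proteins such as the proneural factors, were in 22.8% and 25% against 20.6% and 24.0%. Ebf3 had CAGCTG in 10 of 26 regions, Ebf2 in 6 of 24 and Ebf1 in 5 of 40. The string ATGCAAAT, bound by POU domain factors, was in 5 of 92, or 5.43%, against 1.73% of all distal regions, with 2 of these at Ebf1 and 3 at Ebf3. GTTGCC, part of the RFX site, was in 7 of the 24 Ebf2 regions and 13.0% of all 92, against 11.7%. The Zic string CAGCAGG was in 7.61% against 12.1%, the AP-1 string TGANTCA in 4.35% against 6.98%, TAATTA of homeodomain factors in 6.52% against 6.89%, the SOX string ACAATG in 12.0% against 10.6%, the nuclear receptor string AGGTCA in 8.70% against 9.03%, and AGATAAG of GATA factors in 1.09% against 1.66%. The nuclear factor I palindrome, TTGGC and GCCAA with 5 bases between them, and the ETS string ACCGGAAG were in none of the 92 and in 0.232% and 0.292% of all distal regions. With 92 regions a share of a few percent rests on a handful of them, and 14 motifs were compared.

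The upstream group of Ebf3 held 2 of the regions with ATGCAAAT, and both also held E-boxes. They are printed with ATGCAAAT, CAGCTG and CAGATG, on either strand, in capitals.
Ebf3 upstream region at 2.34 kb (chr7:137316696-137316865, minus strand): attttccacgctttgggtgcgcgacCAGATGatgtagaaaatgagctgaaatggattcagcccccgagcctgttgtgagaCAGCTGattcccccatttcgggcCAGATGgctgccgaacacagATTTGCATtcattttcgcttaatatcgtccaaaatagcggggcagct
Ebf3 upstream region at 3.09 kb (chr7:137317456-137317605, minus strand): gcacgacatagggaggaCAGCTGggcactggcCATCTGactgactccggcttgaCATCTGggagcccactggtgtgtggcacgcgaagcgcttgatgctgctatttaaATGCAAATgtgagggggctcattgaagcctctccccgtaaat
Their scores were 102 and 71 and 91 and 67.

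Some distal regions of the 4 genes lay in close pairs. Centres of neighbouring regions were within 500 bp of each other in 10 cases, which involved 18 of the 92 regions, or 19.6%, against 15.7% of all distal regions. Ebf1 had 5 such pairs, Ebf2 had 1, Ebf3 had 4 and Ebf4 had none, and the distance of 500 bp was chosen with the data in view.

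The share of Ebf peaks found in the other replicate was low in replicate 1, which has the longer list. Of 270 peaks of replicate 1 at the 4 genes, 105 were found in replicate 2, or 38.9% (exact binomial 95% interval 33.0% to 45.0%, counting error only), against 51.6% of all peaks. Of 140 peaks of replicate 2, 108 were found in replicate 1, or 77.1% (69.3% to 83.8%), against 82.5%. Peaks of 1 gene are not independent of each other, so these intervals describe counts and not animals. With replicate 1 limited to its 171790 highest scores, the length of the other list, the share of replicate 1 was 96 of 186 or 51.6%, against 71.0% of all peaks, and that of replicate 2 was 70.7% against 72.2%. With full and with equal lists both shares were below the genome's. In the full lists Ebf3 had the lowest of replicate 1, with 30 of 117 or 25.6%, while Ebf1 had 49.4%, Ebf2 44.1% and Ebf4 7 of 9.

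Recurrence rose with the score. In replicate 1 it was 5.56% in the lowest quartile of scores, then 20.9%, 41.4% and 83.9%, against 14.5%, 31.4%, 65.9% and 93.9% for all peaks. In replicate 2 it was 42.1%, 67.4%, 86.4% and 100%, against 55.1%, 82.8%, 93.0% and 98.2%. The Ebf share was below that of all peaks in 7 of the 8 quartiles, and all 31 of the Ebf peaks in the top quartile of replicate 2 were found in replicate 1.

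**Figure D3:**
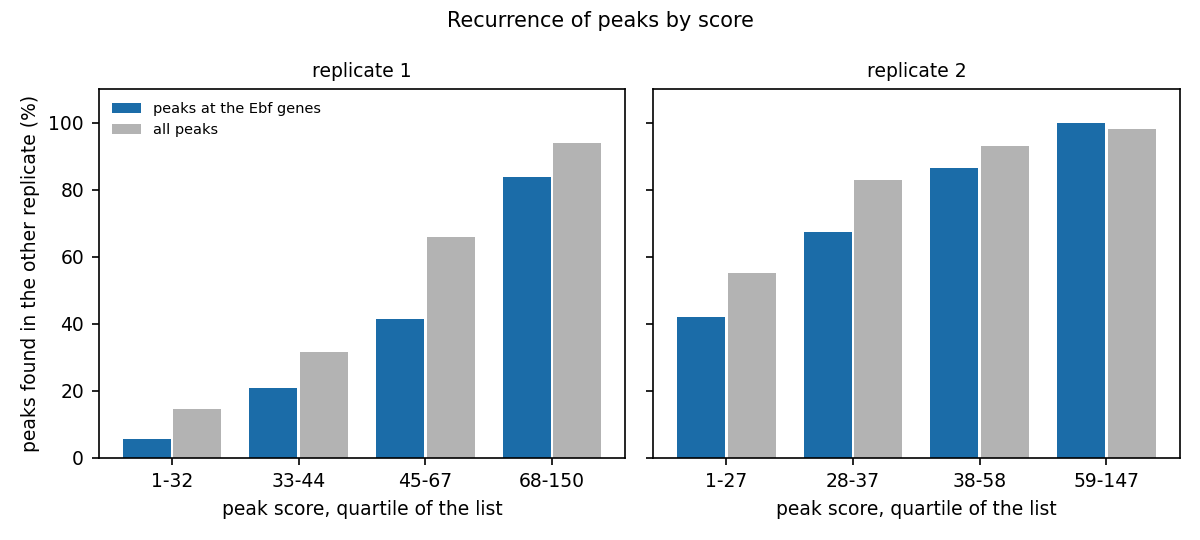
Share of peaks found in the other replicate, in percent, by quartile of the peak score (x axis, score ranges) for replicate 1 (left) and replicate 2 (right), for peaks at the Ebf genes and for all peaks. In replicate 1 the Ebf share climbs from 5.56% to 83.9% and stays under that of all peaks.

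A part of the replicate 1 excess sat in a single block of Ebf3. Between 101 and 117 kb from its 5′ end, at chr7:137197236-137213065, replicate 1 had 33 peaks in succession that replicate 2 lacked, packed into 15.8 kb and covered by 26 hotspots of replicate 1. Replicate 2 had no peak and no hotspot there. The block lay in the 3′ part of the gene, with 16 of its peaks in intron 10, 11 in intron 11, 1 in intron 13, 3 in intron 15 and 1 each in exons 12 and 14. Scores were low, from 20 to 59 with a median of 31, and median GC content was 50%. It was the longest of 3 runs of at least 20 such peaks with gaps of at most 1500 bp in replicate 1, and replicate 2 had 0 such runs. With gaps of at most 1000 bp it held 29 peaks and was the shorter of 2 runs. These limits were set after the block had been seen. Replicate 1 has 270757 peaks in all against 171790 in replicate 2, and when it was limited to its 171790 highest scores, all of at least 38, the block kept 8 of its 33 peaks. Without the block, recurrence in replicate 1 was 44.3% over the 4 genes and 35.7% at Ebf3, both still below 51.6%.

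**Figure D4:**
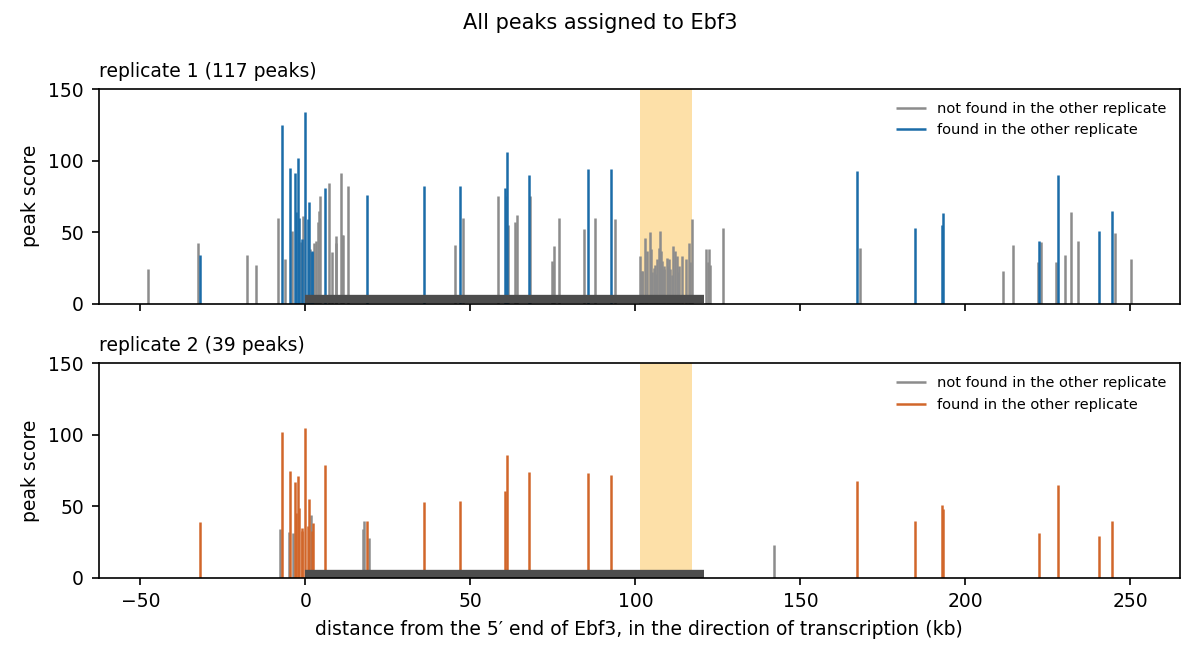
All peaks assigned to Ebf3 in replicate 1 (top, 117 peaks) and replicate 2 (bottom, 39 peaks), with the distance from the gene's 5′ end in kb on the x axis and the peak score on the y axis. Coloured lines are peaks found in the other replicate, the dark bar is the gene, and the shaded stretch holds the 33 peaks that only replicate 1 has.

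A few peaks of high score were also missing from replicate 2. The highest was in Ebf2 at chr14:67344856-67345005, 112 kb from the 5′ end, with a score of 94 in replicate 1. Replicate 2 had a peak of 53 close by that did not overlap it, which was also the highest peak seen in replicate 2 alone. Ebf3 had 3 between 7.13 and 12.8 kb from its 5′ end, with 84, 91 and 82, inside the long intron, a stretch where replicate 2 had no peak. 

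Hotspots were counted by the same rules as peaks. Replicate 1 had 237 at the 4 genes and replicate 2 had 128, of which 73 or 30.8% and 29 or 22.7% carried the highest −log10 q of 100, against 34.8% and 34.0% of all hotspots. By gene they numbered 81, 54, 94 and 8 in replicate 1 and 53, 33, 34 and 8 in replicate 2, in the order Ebf1 to Ebf4. Ebf4 thus had as many hotspots in replicate 2 as in replicate 1, and Ebf3 had far fewer. With hotspots in place of peaks the shared distal regions of Ebf3 fell from 26 to 17, below the 23 of Ebf2, and the body regions of Ebf4 from 5 to 3. The widest in Ebf2 differed between the replicates, 1078 bp in the long intron 112 kb in for replicate 1, over the unshared peak of 94, and 922 bp over the upstream pair 44.5 kb away for replicate 2.

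The family was set beside 3 other transcription factor families. All 5 Zic genes and all 4 nuclear factor I genes had promoter peaks in both replicates, as the 4 Ebf genes did, and 9 of 12 LIM homeobox genes did. Distal regions per gene were 23 for Ebf, 19 for Zic, 9.75 for LIM homeobox and 32.8 for nuclear factor I. Per 100 kb of nearest genome the pooled values were 6.29, 5.57, 4.95 and 9.99. In numbers of distal regions per gene the range of the Ebf genes, 2 to 40, overlapped those of the others, 2 to 52, 2 to 22 and 7 to 76. Per 100 kb the Ebf genes, 3.65 to 8.61, overlapped the Zic genes, 2.83 to 94.3, and the LIM homeobox genes, 1.41 to 14.4, but all 4 lay below the nuclear factor I genes, 9.05 to 21.2.

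**Figure D5:**
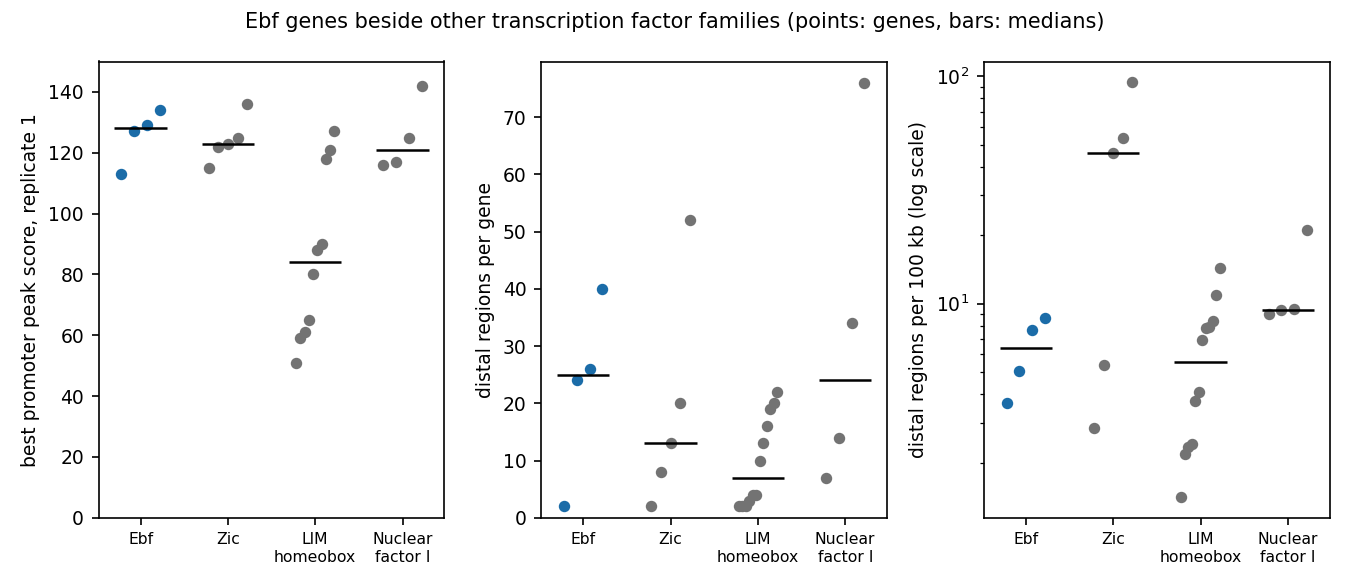
Genes of 4 transcription factor families (points) with their medians (bars): best promoter peak score in replicate 1 (left), number of distal regions (middle) and distal regions per 100 kb of nearest genome on a log scale (right). The Ebf genes span 2 to 40 distal regions and 3.65 to 8.61 per 100 kb; LIM homeobox genes without a promoter peak in replicate 1 are absent from the left plot.

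By promoter scores and numbers of distal peaks in each replicate, the genes most like each Ebf gene were ranked among the 14541 genes by distance over 4 percentiles. For Ebf1 they were Cntn1, B230118H07Rik and Srrm4, with distances of 6.22, 7.22 and 7.80 percentile points. For Ebf2 they were Adamts20, Adarb2 and Irx5 (2.80, 2.91 and 3.44), and for Ebf3 Cux1, Arid1b and Lingo1 (2.92, 4.29 and 4.39). For Ebf4 they were Sh3bp2, Fgf15 and Ephb4 (1.64, 3.61 and 3.76). No gene of these sets recurred in another, and the distances were widest for Ebf1. A small distance in percentiles can go with a large difference in number. Ebf3 had 112 distal peaks in replicate 1 and 36 in replicate 2, where Cux1 had 65 and 43.

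Genes that Ebf proteins are known to work with had open promoters in part. The 2 zinc finger partners that bind Ebf proteins had promoter peaks in both replicates. Zfp521 scored 137 and 118, and Zfp423 scored 114 and 79. They had 59 and 47 distal regions, each a larger number than that of any Ebf gene. Per 100 kb of nearest genome the partners ranged from 6.655 to 13.23, which overlapped the 3.65 to 8.61 of the Ebf genes. Of a B lineage list, 6 of 14 genes had promoter peaks of both replicates, led by Tcf3 with 143 and 133, Vpreb1 with 136 and 116, Foxo1 with 132 and 98 and Pax5 with 127 and 90. Vpreb1, a surrogate light chain gene, shared its peak with a start site of Top3b. Blk, Cd79a and Cd79b, which act in B cell receptor signalling, had no promoter peak in either replicate. Tcf3 and Foxo1 are widely expressed, and Pax5 also marks the midbrain and hindbrain border of the embryo. Of an adipocyte list, 6 of 8 had a promoter peak in both, among them Cebpa with 134 and 106 and Prdm16 with 109 and 71, and Fabp4 had none in either. Of an olfactory neuron list, 3 of 6 did, Adcy3, Gnal and Gng13, and none was at Cnga2, Omp or Stoml3.

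Lists of neuronal and vascular genes linked to the family were counted in the same way. Of factors that act early in neurogenesis, 6 of 7 had promoter peaks of both replicates, with Neurod1 at 128 and 102, Atoh1 at 93 and 71 and Neurog2 at 94 and 66. Of a Purkinje lineage list 9 of 10 did, led by Itpr1 with 137 and 123 and Lhx1 with 127 and 108. All 6 genes of a cerebellar nuclei list and all 4 of a Cajal-Retzius list did, with Pou3f2 at 133 and 126, Meis2 at 124 and 91 and Reln, the secreted guidance protein of early neurons, at 121 and 80. Of a pericyte and mural cell list 5 of 8 did, with Tbx18 at 125 and 99 and Cspg4 at 85 and 53. As with Vpreb1, the best peak also lay at a start site of another gene for Cebpa (Gm45091), Neurod1 (Cerkl), Lhx1 (Lhx1os) and Cspg4 (Odf3l1). All these shares stand beside the 66.3% of all protein-coding genes and come from lists of 2 to 14 genes.

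The tissue label was checked with marker lists. All 8 hindbrain markers had promoter peaks of both replicates, with Zic1 at 136 and 121 and En2 at 135 and 104, while 3 of 8 forebrain markers did, Dlx1, Emx2 and Tbr1, at 82 and 62, 73 and 52 and 49 and 43. The Emx2 peak also lay at a start site of Emx2os. Some genes are on more than 1 list, among them Tbr1, which is also on the cerebellar nuclei list. All 7 markers of the granule lineage, 6 of 7 of Purkinje cells, 4 of 6 of pericytes and mural cells, 4 of 6 of meninges and fibroblasts, 2 of 4 of olfactory neurons and 2 of 7 of B lymphocytes did. Beside the 66.3% of all protein-coding genes, the pericyte and meningeal shares were near the background and the forebrain, olfactory and B lymphocyte shares below it. These shares require a peak in replicate 2, which has the shorter list. A further 3 forebrain markers and 2 pericyte and mural markers had a promoter peak in replicate 1 alone. In replicate 1, 70.8% of all protein-coding genes had one. Only 1 forebrain marker had none in either replicate, against 5 B lymphocyte, 2 olfactory and 2 meningeal markers. The part of any cell type in the openness of the Ebf genes was not tested.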

How the data were processed

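DNase-seq peaks and hotspots of 2 hindbrain replicates were used as deposited. Both kinds of list were made per library, without pooling, from alignments to mm10, per the labels. The sources used here name no aligner, caller or threshold. The authors' peak value is a score from 1 to 150 whose scaling is not stated. The deposited hotspot value is a −log10 q from 1.30 to 6 and then, for the top hotspots, 100.

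Genes and start sites came from GENCODE vM21 and sequences from the NCBI reference assembly GRCm38.p6, both of the build of the files. The exons are numbered along the coding transcript that starts at the gene's 5′ end. A shared region is a merged stretch of overlapping peaks (at least 1 bp) to which each replicate contributes. Analyses used Python 3.11.15, pandas 2.3.3, numpy 2.4.6, scipy 1.17.1 and pysam 0.24.0, and the overlap code was tested on simulated data. With 1 group no test between conditions was possible, and values are given beside those of all genes, peaks or regions. The members, lists and motifs were chosen with earlier results of these data known. The text names the 4 genes, their neighbours, up to 4 genes of each list with the highest promoter scores and up to 4 without a promoter peak, the 3 genes most like each Ebf gene, and the highest regions of each class. Alternatives covered the replicate used, score minimum, promoter window, overlap rule, list length and nearest gene. A few items that these rules name are not reported here.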

Additional observations from a re-analysis of the deposited data

How the results depend on the processing

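The count of 4 Ebf genes with a promoter peak of both replicates was the same under every alternative tried, including a 1000 bp window and the 5′ end alone. Gene body regions, 65 in all, ranged from 87 to 178 when a replicate was left out, and distal regions, 92 in all, from 123 to 251. Distal regions numbered 58 with only peaks at or above the median score of their list, and 39 with the nearest gene of every type. With lists of equal length, 51.6% of the Ebf peaks of replicate 1 were found in replicate 2, against 71.0% of all its peaks. Hotspots at a −log10 q of at least 10 numbered 73 and 29, the same as at the value of 100. This was fixed in advance, since no hotspot has a value between 6 and 100. Windows of 100 bp held 0 EBF palindromes at the Ebf regions. Of 82 alternatives for single genes or features, 59 stayed within 1.5 times the main value and 23 did not. The cause of these shifts was not tested, beyond the fewer or more regions each rule admits. No paired analysis was possible because there is 1 group.

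The peak score has no stated unit and the depth of either library is unknown, so scores were ranked only within a list, and the absence of a peak does not show closed chromatin. With 2 replicates, spread between animals was not measured. Assignment by nearest start does not show which gene a region acts on.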
